A study of Mus musculus with 6 samples.

Results

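The genes described here are 39 type I interferon response genes, listed by name: RNA sensors, transcription factors, antiviral effectors and the ISG15 conjugation system. Their RNA was measured by sequencing in epithelium of the antrum, which is the lower, gastrin-producing end of the stomach. Of the 39, 37 were found by gene symbol among the 17256 genes of the table, and Mx1 and Mx2 were not analysed here. All 37 passed the filter on low counts, as did 13071 genes in all. The libraries came from C57BL/6 mice with atrophic gastritis induced over 20 weeks by MNNG, an alkylating carcinogen, and a drug that the labels spell Ranitine. In 3 libraries the mice had then received vehicle for 2 weeks, and in the other 3 PEEPA-P5 by gavage for 2 weeks. Both groups thus carry the induced gastritis, and no group without it was analysed here. PEEPA-P5 is known here only by its code name. Whether the libraries of a group stand for different mice is not stated in the labels, so each p-value reflects library-to-library spread that may be technical only.

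Type I interferons bind the receptor of IFNAR1 and IFNAR2 on nearly all cells, and type III interferons bind IFNLR1 with IL10RB, mainly on epithelia. Both activate the kinases JAK1 and TYK2 and then ISGF3, a transcription factor complex that includes STAT2 and IRF9. ISGF3 binds the interferon-stimulated response element (ISRE) in the promoters of a shared set of genes, whose products sense, degrade or block foreign RNA. These transcripts are low in resting epithelium and rise together when interferon is present.

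Total counts ran from 16388844 to 16903545 per library. The epithelial markers were high in every library, with Krt19 at 4694 to 7814 TPM (the authors' length-scaled unit) and Tff1 at 208100 to 286000 TPM. Gast, the gastrin gene that marks the antrum, was at 9492, 6822 and 609.6 TPM in vehicle 1, 2 and 3 and at 7032, 4990 and 199.4 TPM in PEEPA-P5 1, 2 and 3. The libraries numbered 3 were therefore low in the antral hormone in both groups. Pdx1, of the same antral marker list, was at 31.05, 29.31 and 17.03 TPM in vehicle and 30.14, 34.7 and 38.03 TPM in PEEPA-P5. It was thus lowest in vehicle 3 but highest in PEEPA-P5 3. PEEPA-P5 3 had the lowest summed TPM of fibroblast, endothelial, smooth muscle and macrophage markers.

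No member passed the test for a difference between PEEPA-P5 and vehicle. With edgeR's quasi-likelihood test, 0 of the 37 passed an adjusted p of 0.05, and the smallest adjusted p among them was 0.431, for Oasl1. Of all 13071 genes tested, 0 passed (0%), but 12.1% had an unadjusted p under 0.05, against 0 of the 37 members. In none of the 37 were the groups separate, against 20.4% of all tested genes. The estimate was higher with PEEPA-P5 in 16 members and lower in 21, where 49.4% of all tested genes were higher. This split was not stable: scaling by library totals alone gave 11 higher, and limma-voom, which averages on the log scale, gave 29. The median log2 difference was -0.15 over the members and 0.00 over all tested genes, and limma-voom put the members' median at 0.17. DESeq2 called 0 members and 0.773% of all tested genes.

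The members spread widely inside each group. On the log2 CPM scale with its prior count of 2, which narrows the range of low genes, the highest and lowest of the 6 libraries lay at least 4-fold apart in 20 of the 37 members, against 13.3% of all tested genes. Among the vehicle libraries alone, 17 members lay at least 4-fold apart, against 3.15% of all tested genes. The median SD of log2 CPM (counts scaled to library size) over the 3 vehicle libraries was 0.97 for the members and 0.19 for all tested genes. Over the 3 PEEPA-P5 libraries it was 0.64 for the members and 0.21 for all tested genes. In tissue RNA fewer cells of a type and less RNA per cell cannot be told apart.

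The high and low libraries were much the same from member to member and lay in both groups. Vehicle 1 was the highest of the 6 libraries in 28 of the 37 members, and it was the highest in 8.45% of all tested genes. Vehicle 2 was the lowest in 22 members, and it was the lowest in 18.6% of all tested genes. Vehicle 1 and PEEPA-P5 1 were each among the 3 highest libraries in 36 members and PEEPA-P5 3 in 30. Vehicle 2, vehicle 3 and PEEPA-P5 2 were there in 4, 1 and 4. Over all tested genes each library was among the 3 highest in 49.1% to 50.8%. The median member lay 1.08 log2 units above its own mean over the 6 libraries in vehicle 1, 0.45 in PEEPA-P5 1 and 0.47 in PEEPA-P5 3. It lay at -0.71 in vehicle 2, -0.44 in vehicle 3 and -0.46 in PEEPA-P5 2. The medians of all tested genes lay between 0.00 and 0.02 in every library.

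**Figure D1:**
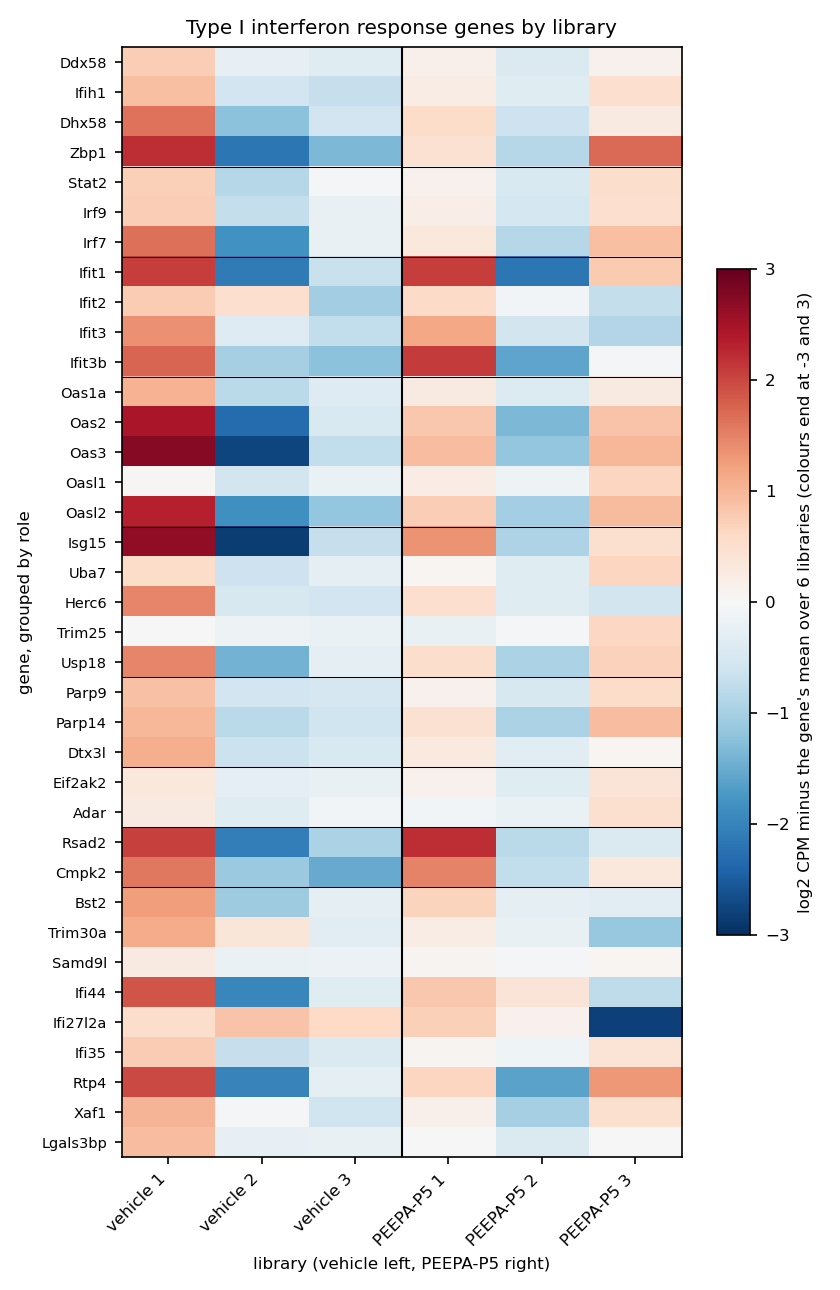
Heat map of the 37 genes (rows, grouped by role) in the 6 libraries (columns); the colour gives log2 CPM minus the gene's mean over the 6 libraries. Vehicle 1 lies above the mean in all 37 rows and PEEPA-P5 1 in 35, while vehicle 2, vehicle 3 and PEEPA-P5 2 are mostly blue. Ifi27l2a departs from this with its lowest value in PEEPA-P5 3.

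Isg15 (Entrez 100038882), the ubiquitin-like protein that interferon induces and that is attached to other proteins, varied most. It stood at 17.5, 0.27 and 1.60 CPM in vehicle 1, 2 and 3 and at 7.05, 1.34 and 3.76 CPM in PEEPA-P5 1, 2 and 3. The vehicle 2 value rests on 5 counts, against 305 in vehicle 1. Vehicle 1 lay above all PEEPA-P5 libraries and the other vehicle libraries at or below most of them, so the groups overlapped. PEEPA-P5 minus vehicle came to -0.68 on the log2 scale (standard error 1.35, edgeR adjusted p 0.843).

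The promoter of Isg15 is shown because it carries the element through which ISGF3 acts. It spans 250 bases before to 50 bases after the RefSeq start, at chr4:156200769-156201068 on the minus strand of build GRCm38.p6, a later build than the mm9 that the submitters' processing notes name. Capitals mark every match to GAAANNGAAA, the ISRE core, or to its other-strand form TTTCNNTTTC. Here 3 overlapping matches lie 78 to 57 bases before the start.
Isg15 promoter: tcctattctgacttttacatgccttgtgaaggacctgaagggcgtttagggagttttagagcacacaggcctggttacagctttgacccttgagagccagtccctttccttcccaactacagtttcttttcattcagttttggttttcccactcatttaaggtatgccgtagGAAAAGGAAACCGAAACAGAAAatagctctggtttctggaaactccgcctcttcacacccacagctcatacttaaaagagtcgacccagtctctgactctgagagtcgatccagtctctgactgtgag

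Of the 37 members, 29 had a promoter in the RefSeq table, and 13 of these (44.8%) held the ISRE letters on either strand. Of the tested genes with a promoter there, 3.66% held them, and of all RefSeq genes 3.99%. The letters TTCNNNGAA of the gamma-activated site, an element of genes induced by interferon gamma, were in 20.7% of the members and 8.23% of the tested genes. Matches with 10 bases on each side are given for some of the effector genes described in the results and for Stat2, on the strand of the gene and in the same build.
Ifit1, chr19:34640775-34640823, plus strand: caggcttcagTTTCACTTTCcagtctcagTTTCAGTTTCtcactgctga
Ifit3, chr19:34583363-34583392, plus strand: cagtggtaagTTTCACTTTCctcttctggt
Ifit3b, chr19:34607759-34607788, plus strand: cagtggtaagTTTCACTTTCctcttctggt
Oas1a, chr5:120907520-120907555, minus strand: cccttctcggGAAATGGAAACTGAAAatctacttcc
Oas3, chr5:120777715-120777744, minus strand: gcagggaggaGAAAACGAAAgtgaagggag
Rsad2, chr12:26456553-26456582, minus strand: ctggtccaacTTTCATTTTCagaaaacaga
Bst2, chr8:71537577-71537612, minus strand: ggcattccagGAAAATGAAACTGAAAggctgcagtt
Eif2ak2, chr17:78882535-78882564, minus strand: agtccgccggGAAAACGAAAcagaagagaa
Stat2, chr10:128270266-128270295, plus strand: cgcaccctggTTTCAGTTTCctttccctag

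The windows of Ifit3 and Ifit3b are the same 30 letters, and each gene has another match nearer its start. In Eif2ak2 the match lies inside the gene, 19 to 28 bases from its first base, and in the other 8 genes shown it lies before the start. Among members not shown, the match of Ddx58 and of Ifih1 also lies inside the gene. Trim30a has a match before the start in promoter 1 and inside the gene in promoter 2. The log2 distance from the lowest to the highest library had a median of 2.26 over the 13 members with the letters, 1.60 over the 16 without and 3.26 over the 8 with no promoter in the table. A match describes these letters only, and no test was made of this difference.

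The sensors of foreign nucleic acid came next. Zbp1, which binds left-handed nucleic acid and can start necroptosis, stood at 18.0, 0.76 and 1.41 CPM in vehicle 1, 2 and 3 and at 5.24, 2.04 and 12.6 CPM in PEEPA-P5 1, 2 and 3. Vehicle 1 and PEEPA-P5 3 were high, and the groups overlapped (log2 difference -0.02, standard error 1.26, edgeR adjusted p 0.995). The RNA helicase sensors were steadier. Ifih1, which encodes MDA5, was at 48.5, 17.4 and 15.9 CPM in vehicle and 30.2, 20.0 and 36.4 CPM in PEEPA-P5. Ddx58, which encodes RIG-I, was at 15.6, 7.82 and 7.24 CPM in vehicle and 10.3, 6.83 and 10.2 CPM in PEEPA-P5. Their regulator Dhx58 (LGP2) ran wider, from 2.59 CPM in vehicle 2 to 19.5 CPM in vehicle 1. All 4 sensors were highest in vehicle 1.

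The transcription factors showed the same order of libraries at unequal size. Irf7, the inducible factor that amplifies interferon production, stood at 109.9, 9.77 and 29.98 CPM in vehicle 1, 2 and 3 and at 43.7, 19.2 and 65.1 CPM in PEEPA-P5 1, 2 and 3. Vehicle 1 was thus 11.2 times vehicle 2, and all PEEPA-P5 libraries lay between these 2 (log2 difference -0.23, standard error 0.89, edgeR adjusted p 0.926). Stat2 was at 60.3, 20.4 and 35.9 CPM in vehicle and 40.1, 26.8 and 52.8 CPM in PEEPA-P5. Irf9, its DNA-binding partner, was at 51.4, 18.6 and 26.4 CPM in vehicle and 35.4, 21.3 and 43.2 CPM in PEEPA-P5. Both kept all PEEPA-P5 libraries between the lowest and the highest vehicle library.

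The OAS family makes 2-5A, the second messenger that switches on RNase L. Oas3 stood at 31.7, 0.59 and 2.75 CPM in vehicle 1, 2 and 3 and at 8.98, 2.04 and 9.48 CPM in PEEPA-P5 1, 2 and 3 (log2 difference -0.78, standard error 1.34, edgeR adjusted p 0.816). Oas2 stood at 99.5, 3.56 and 13.1 CPM in vehicle and 32.0, 7.01 and 32.7 CPM in PEEPA-P5 (log2 difference -0.70, standard error 1.2, edgeR adjusted p 0.816). In both genes vehicle 1 was the highest library and vehicle 2 the lowest, at ratios of 53.5 and 27.9. Oasl2 ran from 8.09 CPM in vehicle 2 to 148 CPM in vehicle 1, with PEEPA-P5 at 48.5, 14.2 and 56.0 CPM. Oas1a, with higher levels, had the narrower ratio of 3.58. It stood at 114, 32.0 and 42.7 CPM in vehicle and 67.6, 42.0 and 67.5 CPM in PEEPA-P5 (log2 difference -0.09, standard error 0.50, edgeR adjusted p 0.942). Of its sequence 68.7% also occurs in Oas1g, so its reads cannot be fully told apart from those of that gene.

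Oasl1, which restrains the translation of Irf7 mRNA, had another order of libraries. It was the most abundant member per length, at a mean of 179 TPM, and vehicle 1 was not its highest library. It stood at 342, 228 and 291 CPM in vehicle 1, 2 and 3 and at 394, 299.7 and 526 CPM in PEEPA-P5 1, 2 and 3. PEEPA-P5 1 and 3 lay above all vehicle libraries, and PEEPA-P5 2 lay within their range (log2 difference 0.50, standard error 0.23, edgeR unadjusted p 0.0675, adjusted p 0.431). With the replicate number as a block the log2 difference was 0.48 (edgeR unadjusted p 0.0271, adjusted p 0.364).

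**Figure D2:**
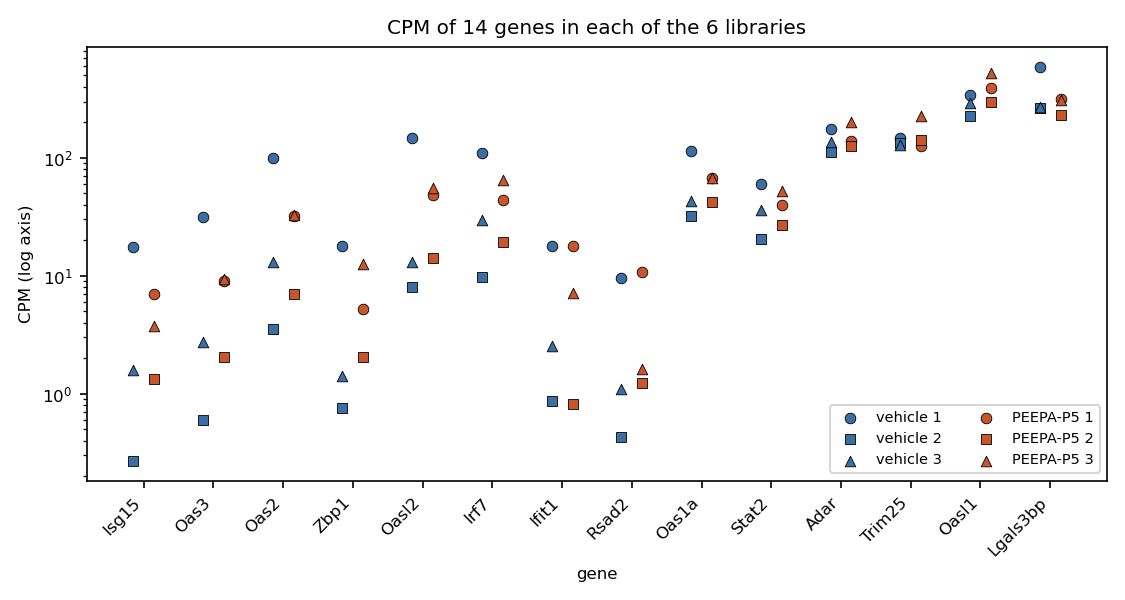
CPM on a log axis for 14 of the genes in each library; blue marks vehicle and orange PEEPA-P5, and circles, squares and triangles mark libraries 1, 2 and 3. Vehicle 1 exceeds vehicle 2 by ratios of 65.0, 53.5 and 27.9 in Isg15, Oas3 and Oas2, while in Adar and Trim25 the highest library is 1.79 and 1.78 times the lowest.

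The IFIT proteins bind viral RNA by its cap or its end and block its translation. Ifit1 stood at 17.8, 0.86 and 2.56 CPM in vehicle 1, 2 and 3 and at 17.9, 0.82 and 7.19 CPM in PEEPA-P5 1, 2 and 3, so both libraries numbered 1 were high and both numbered 2 low. Ifit3 and Ifit3b are near copies: 61.8% of Ifit3 also occurs in Ifit3b, and the counts of both were split into fractions. Added together they stood at 8.74, 2.00 and 1.54 CPM in vehicle and 8.79, 1.64 and 1.88 CPM in PEEPA-P5. Here both libraries numbered 1 stood above all others, and PEEPA-P5 3 was not raised. Ifit2 was low throughout, at 8 to 36 counts per library.

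Viperin and its neighbour followed the IFIT genes more than the OAS genes. Rsad2, which encodes viperin, an enzyme that makes a chain-terminating nucleotide, stood at 9.60, 0.43 and 1.09 CPM in vehicle 1, 2 and 3 and at 10.7, 1.23 and 1.61 CPM in PEEPA-P5 1, 2 and 3. Cmpk2, a kinase that supplies its substrate, stood at 11.96, 1.73 and 1.28 CPM in vehicle and 11.1, 2.28 and 4.84 CPM in PEEPA-P5. In Rsad2 PEEPA-P5 3 was close to PEEPA-P5 2, whereas in Oas2 it was close to PEEPA-P5 1. The member genes thus did not share 1 order over the PEEPA-P5 libraries.

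The ISG15 conjugation system splits into steady and variable parts. Uba7, the activating enzyme for ISG15, was at 40.7, 18.0 and 23.1 CPM in vehicle 1, 2 and 3 and at 29.2, 21.6 and 43.5 CPM in PEEPA-P5 1, 2 and 3. Herc6, its ligase in the mouse, was at 7.13, 1.78 and 1.66 CPM in vehicle and 3.61, 1.93 and 1.68 CPM in PEEPA-P5 (log2 difference -0.55, standard error 0.65, edgeR adjusted p 0.726). Vehicle 1 alone was high in Herc6, with PEEPA-P5 1 between it and the rest. Usp18, which removes ISG15 and restrains the receptor, was at 12.6, 1.62 and 3.65 CPM in vehicle and 6.57, 2.28 and 7.33 CPM in PEEPA-P5. Trim25, which activates RIG-I, was at 147, 133 and 128 CPM in vehicle and 126, 141 and 225 CPM in PEEPA-P5 (log2 difference 0.27, standard error 0.22, edgeR adjusted p 0.601). In Trim25 PEEPA-P5 3 stood above the other 5 libraries, which lay close together.

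Parp9 and Dtx3l, an ADP-ribosyltransferase and its ubiquitin ligase partner, share part of their transcript sequence, and both have fractional counts. Together they stood at 74.6, 25.4 and 27.3 CPM in vehicle 1, 2 and 3 and at 44.1, 28.6 and 50.4 CPM in PEEPA-P5 1, 2 and 3. Parp14 was at 47.9, 13.6 and 15.8 CPM in vehicle and 32.9, 12.3 and 45.4 CPM in PEEPA-P5. In each of these vehicle 1 was highest and vehicle 2 and PEEPA-P5 2 were among the 3 lowest libraries.

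The double-stranded RNA kinase and the RNA editor moved little. Eif2ak2 (PKR) ran from 41.2 CPM in PEEPA-P5 2 to 68.5 CPM in PEEPA-P5 3. Adar, which edits adenosine in double-stranded RNA and so keeps MDA5 from reacting to the cell's own RNA, was at 174, 113 and 137 CPM in vehicle 1, 2 and 3 and at 138, 127 and 202 CPM in PEEPA-P5 1, 2 and 3 (log2 difference 0.14, standard error 0.22, edgeR adjusted p 0.803). Samd9l, a restriction factor, was the steadiest member, from 80.9 CPM in vehicle 2 to 112 CPM in vehicle 1.

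Among the remaining effectors Lgals3bp, a secreted glycoprotein, was the most abundant at a mean of 168 TPM. It stood at 592, 264 and 268 CPM in vehicle 1, 2 and 3 and at 317, 231 and 311 CPM in PEEPA-P5 1, 2 and 3, so that vehicle 1 stood alone (log2 difference -0.39, standard error 0.34, edgeR adjusted p 0.638). Bst2, which encodes tetherin, was at 21.7, 4.26 and 7.37 CPM in vehicle and 14.5, 7.53 and 7.26 CPM in PEEPA-P5. Rtp4 ran from 2.27 CPM in vehicle 2 to 37.3 CPM in vehicle 1, Xaf1 from 4.26 CPM in PEEPA-P5 2 to 17.8 CPM in vehicle 1, and Ifi35 from 14.6 CPM in vehicle 2 to 40.3 CPM in vehicle 1. Ifi44 had 55, 2 and 9 counts in vehicle and 24, 18 and 6 counts in PEEPA-P5.

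Ifi27l2a and Trim30a were lowest in PEEPA-P5 3. Ifit3 alone was so too, but Ifit3 and Ifit3b added together were lowest in vehicle 3, at 1.54 CPM against 1.88 CPM in PEEPA-P5 3. Ifi27l2a, a small mitochondrial protein gene, had 54, 73 and 51 counts in vehicle 1, 2 and 3 and 59, 40 and 3 counts in PEEPA-P5 1, 2 and 3 (log2 difference -0.75, standard error 0.76, edgeR adjusted p 0.682). Trim30a stood at 2.99, 1.73 and 1.02 CPM in vehicle and 1.57, 1.11 and 0.54 CPM in PEEPA-P5 (log2 difference -0.83, standard error 0.56, edgeR adjusted p 0.543), and 11.9% of its sequence is shared with other genes. Fibroblast markers summed to 5.04 TPM in PEEPA-P5 3 and to 39.5 to 111 TPM in the others. Macrophage markers summed to 11.0 TPM there, against 29.4 to 68.7 TPM. Their part in the result was not tested.

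Of the fits without 1 library, the fit without vehicle 1 moved the members' median most, and the fit without PEEPA-P5 2 also turned its sign. Without vehicle 1, 35 of the 37 members were higher with PEEPA-P5, against 49.1% of all genes then tested. The median log2 difference rose from -0.15 to 0.71. An unadjusted p under 0.05 in that direction was then reached by 8 members (Ifi35, Zbp1, Ifih1, Cmpk2, Oasl2, Oas1a, Dtx3l and Oasl1) and by 7.77% of all genes, and 0 members passed the adjusted threshold. The smallest adjusted p among them was 0.232, for Ifi35 (log2 difference 0.71, standard error 0.21). Zbp1 stood at 2.62 with a standard error of 0.85 (edgeR adjusted p 0.256). Vehicle 1 was the highest library in 28 members, so leaving it out must raise most of the estimates. The members also share their high and low libraries and are not independent of each other. These counts are therefore a description and no support for a difference. Without vehicle 2 the median was -0.41 and 3 members were higher, and without vehicle 3 it was -0.40 and 5 were higher. Without PEEPA-P5 1 it was -0.33, and without PEEPA-P5 2 it was 0.13. Without PEEPA-P5 3 it was -0.19, and 8 members were higher.

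**Figure D3:**
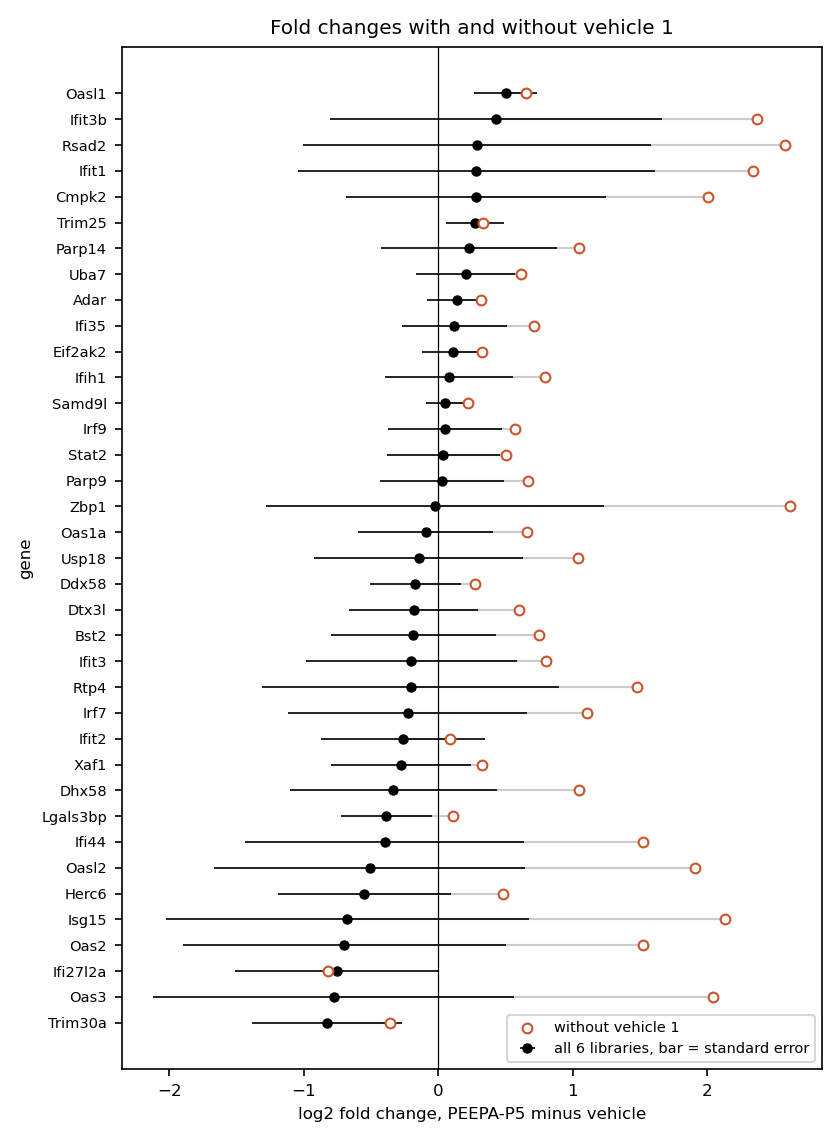
Log2 difference of each gene, PEEPA-P5 minus vehicle, from all 6 libraries (black, bars show the standard error) and without vehicle 1 (open circles). From all libraries 16 of 37 points lie right of 0, and without vehicle 1 it is 35 of 37, the exceptions being Ifi27l2a and Trim30a.

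Within the numbered pairs the sign was not shared either. PEEPA-P5 1 was lower than vehicle 1 in 32 of the 37 members, at a median log2 difference of -0.67. PEEPA-P5 2 was higher than vehicle 2 in 26 members, at a median of 0.26. PEEPA-P5 3 was higher than vehicle 3 in 32 members, at a median of 0.84. With the replicate number as a block 29 members were higher, at a median of 0.13, and 0 passed the adjusted threshold. The differences between vehicle libraries were larger: vehicle 1 exceeded vehicle 2 in 36 members, at a median of 1.75, and vehicle 3 in 36 members, at a median of 1.60.

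The rest of the pathway was read from lists of other genes. Of 20 interferon ligand genes, 2 were read and both fell below the filter. Ifne, an epithelial type I interferon gene, reached 8 counts in its highest library and Ifnz 2.32 counts. The other 18 were not analysed here. The type I receptor genes did not follow the members: Ifnar1 was at 25.9, 26.9 and 25.4 CPM in vehicle 1, 2 and 3 and at 25.3, 27.0 and 30.2 CPM in PEEPA-P5 1, 2 and 3. Ifnar2 was at 9.49, 9.12 and 8.01 CPM in vehicle and 6.93, 7.36 and 3.76 CPM in PEEPA-P5, with the groups separate (log2 difference -0.56, standard error 0.28, edgeR adjusted p 0.454). Ifnlr1, the type III receptor gene, was at 37.2, 25.8 and 27.8 CPM in vehicle and 36.2, 36.1 and 43.1 CPM in PEEPA-P5 (log2 difference 0.35, standard error 0.16, edgeR adjusted p 0.433). Ifnlr1 was lowest in vehicle 2 and above vehicle 2 and 3 in vehicle 1, as most members were, but its highest library was only 1.667 times its lowest. Its partner Il10rb was at 73.4, 65.0 and 55.9 CPM in vehicle and 80.4, 77.4 and 94.8 CPM in PEEPA-P5 (log2 difference 0.38, standard error 0.13, edgeR adjusted p 0.412).

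In the receptor and JAK-STAT list 0 of 8 genes passed, and in 0 of them did the libraries lie 4-fold apart. Of 15 tested genes that lead to interferon production, 0 passed and 0 spanned 4-fold on the log2 CPM scale. Of all tested genes 13.3% spanned 4-fold, so a count of 0 in lists this short says little. Mavs, the adaptor of RIG-I and MDA5, was at 56.2 to 85.3 CPM, and Irf3, the factor that first induces interferon, at 52.6 to 60.6 CPM. Irf1, which the interferon gamma list also holds, was at 35.8, 13.6 and 21.8 CPM in vehicle and 21.6, 22.5 and 45.1 CPM in PEEPA-P5. In plain CPM the DNA sensor gene Cgas ran from 0.81 CPM in PEEPA-P5 3 to 3.40 CPM in vehicle 2, and Irf5 from 0.47 CPM in PEEPA-P5 3 to 1.96 CPM in vehicle 1, ratios of 4.21 and 4.16. Among 11 negative regulators 0 passed. The signalling inhibitor Socs3 was at 87.3, 88.6 and 61.3 CPM in vehicle and 104, 104 and 147 CPM in PEEPA-P5, with the groups separate (log2 difference 0.58, standard error 0.19, edgeR adjusted p 0.412).

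A list of other interferon-stimulated genes was also highest in vehicle 1, at a median of 0.47 log2 units from each gene's mean, but lowest in vehicle 3, at -0.29, with vehicle 2 at -0.27. Of 50 tested, 0 passed the adjusted threshold. Vehicle 1 was highest in 26 of the 50, against 8.45% of all tested genes, and 15 spanned at least 4-fold, against 13.3%. Ddx60 was at 56.1, 6.15 and 9.41 CPM in vehicle 1, 2 and 3 and at 20.8, 9.05 and 35.8 CPM in PEEPA-P5 1, 2 and 3. Ube2l6, the conjugating enzyme for ISG15, was at 26.6, 4.96 and 7.17 CPM in vehicle and 13.4, 9.40 and 17.7 CPM in PEEPA-P5. Both were chosen for mention after their values were seen. By smallest p the list gave Ifitm1, at 2.13, 4.48 and 2.37 CPM in vehicle and 0.60, 1.28 and 0.54 CPM in PEEPA-P5 (log2 difference -1.87, standard error 0.51, edgeR adjusted p 0.412). Nt5c3 was at 77.1, 64.1 and 67.2 CPM in vehicle and 80.3, 79.4 and 98.4 CPM in PEEPA-P5, and Mlkl, the executioner of necroptosis, at 33.4, 22.9 and 21.5 CPM against 33.7, 30.3 and 38.4 CPM.

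Genes of a list for interferon gamma, the type II interferon, were also highest in vehicle 1, in 15 of 24 tested, against 8.45% of all tested genes. The list is not made of induced genes only, as it also holds the receptor genes Ifngr1 and Ifngr2. Relative to each gene's mean, the list's median log2 level was 0.72 in vehicle 1, 0.00 in PEEPA-P5 1 and 0.20 in PEEPA-P5 3. The type I members had 1.08, 0.45 and 0.47 there. Gbp2, an interferon-induced GTPase, was at 22.5, 4.26 and 2.69 CPM in vehicle 1, 2 and 3 and at 9.46, 6.54 and 28.2 CPM in PEEPA-P5 1, 2 and 3. Tap1, the peptide transporter for class I, was at 50.1, 11.8 and 15.5 CPM in vehicle and 25.3, 17.9 and 31.3 CPM in PEEPA-P5. Gbp2 and Tap1 were chosen after their values were seen. By smallest p the list gave Ifngr2, at 118, 103 and 106 CPM in vehicle and 121, 117 and 177 CPM in PEEPA-P5 (log2 difference 0.35, standard error 0.17, edgeR adjusted p 0.452), and then H2-Aa and Gbp4, at log2 differences of -0.47 and -0.82. Of the 24 genes 0 passed. The difference between the lists was not tested.

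**Figure D4:**
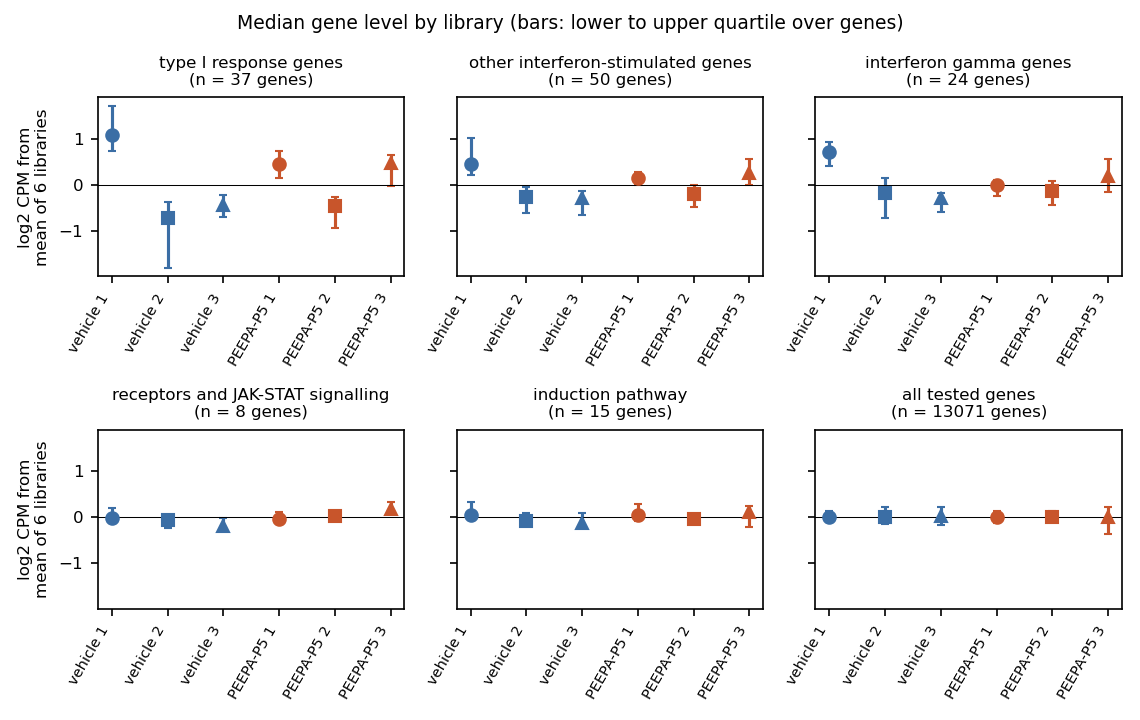
Median gene level by library for 6 gene sets, as log2 CPM from each gene's mean over the 6 libraries; bars run from the lower to the upper quartile over genes, blue marks vehicle and orange PEEPA-P5. The type I response genes lie at 1.08 in vehicle 1 and -0.71 in vehicle 2, while receptors, the induction pathway and all tested genes stay near 0.

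The immune marker lists differed in how they ranked the libraries. Ptprc, the pan-leukocyte gene, was at 0.62, 0.73 and 0.47 TPM in vehicle 1, 2 and 3 and at 0.29, 0.47 and 0.14 TPM in PEEPA-P5 1, 2 and 3. The 5 leukocyte markers summed to 30.4 to 42.5 TPM in vehicle and 28.0 to 32.9 TPM in PEEPA-P5, with vehicle 2 the highest and most of the sum from Lcp1, at 26.5 to 37.5 TPM. The 10 macrophage and monocyte markers summed to 58.2, 68.7 and 29.4 TPM in vehicle and 33.2, 58.1 and 11.0 TPM in PEEPA-P5. Vehicle 2 and PEEPA-P5 2, where the members were low, had the highest macrophage sums of their groups. Of the markers of plasmacytoid dendritic cells, a major source of type I interferon, Siglech was at 0 in 3 libraries and at most 0.07 TPM in the others. The 6 genes of that list read here summed to 862, 532 and 544 TPM in vehicle 1, 2 and 3 and to 761, 662 and 748 TPM in PEEPA-P5 1, 2 and 3. Most of the sum came from Ly6d and Klk1, whereas Siglech had at most 3 counts and Ccr9 at most 6 counts in any library. The sum therefore says little about the amount of these cells. Ly6d was at 676, 313 and 433 TPM in vehicle and 557, 464 and 612 TPM in PEEPA-P5. Klk1 had another order, at 180, 211 and 107 TPM in vehicle and 197, 192 and 131 TPM in PEEPA-P5. Klk1, Tcf4 and Pacsin1 were highest in vehicle 2, so the sum was highest in vehicle 1 and lowest in vehicle 2 through Ly6d. The 6 markers of conventional dendritic cells summed to 1.45, 1.36 and 0.78 TPM in vehicle and 0.85, 1.00 and 0.17 TPM in PEEPA-P5. The part of these cells in the spread of the members was not tested. The 8 markers of T and NK cells read here summed to at most 1.8 TPM in any library.

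Markers of acid- and enzyme-secreting cells varied widely between libraries. Atp4a, Atp4b, Cblif and Pga5 of parietal and chief cells summed to 573, 2116 and 3597 TPM in vehicle 1, 2 and 3 and to 70.6, 483 and 11.3 TPM in PEEPA-P5 1, 2 and 3. All vehicle sums lay above all PEEPA-P5 sums, but not every gene of the list did so. Atp4a overlapped, at 114.6 TPM in vehicle 1 and 119.5 TPM in PEEPA-P5 2. Pga5 was at 8.4 and 8.35 TPM in these libraries. Among single genes, the groups were separate in 20.4% of all tested genes. The lowest vehicle sum was that of vehicle 1, and the highest PEEPA-P5 sum was that of PEEPA-P5 2. The part of these cells in the spread of the interferon genes was not tested.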

How the data were processed

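The authors deposited expected counts, FPKM and TPM for 17256 genes per library, per the file headers. Per the submitters' processing notes, Bowtie2 2.2.5, RSEM 1.2.12 and build mm9 were used (settings: not given in the sources used here). The deposited FPKM and the authors' group means were not used in any result, and the deposited TPM only for levels per length, marker sums and a side analysis. Libraries were made with an Illumina TruSeq kit from total RNA, per the labels' protocols; strandedness: not given in the sources used here.

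The expected counts were rounded and tested with edgeR 4.0.16 in R 4.3.3 (robust quasi-likelihood, TMM factors, its expression filter), PEEPA-P5 against vehicle without covariates, with Benjamini-Hochberg adjustment over the 13071 tested genes at 0.05. The test was checked on simulated counts. CPM use TMM-scaled totals, and log2 CPM a prior count of 2. Alternatives were DESeq2 1.42.0, limma 3.58.1 (voom, and trend on TPM with pseudocounts of 1 and 0.1), other scalings and filters, a replicate block and each library left out.

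The members and lists were chosen with earlier results of these data known. Full statistics were given for the 8 members with the smallest p, the 6 highest in TPM and, at a mean of 5 CPM or more, the 4 with the widest ratio between libraries. From the other lists the rule took up to 3 genes with the smallest p at 1 CPM or more, and fixed defining genes. Between same-numbered libraries the departures from each group's mean had correlations of 0.237, 0.346 and 0.235, so the numbers were taken as possible pairs; the labels do not state a pairing. No pair of libraries agreed within sampling noise. Shared sequence was counted as 31-base stretches in GENCODE M21 transcripts. Promoters came from RefSeq (GRCm38.p6), matched by Entrez identifier. Values of 1 gene in the signalling list are not reported here.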

Additional observations from a re-analysis of the deposited data

How the results depend on the processing

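The count of members past the adjusted threshold was 0 under all 17 alternatives. DESeq2 called 101 genes over the table. Leaving out each library gave 0 to 1 called genes, 3 to 35 members higher with PEEPA-P5 and a member median of -0.41 to 0.71. Other scaling factors, filters and DESeq2 reversed the sign of 0 of the named members they tested. The members' median, -0.15 as reported, was 0.17 with limma-voom, 0.01 and 0.07 on log2(TPM + 1) and log2(TPM + 0.1) and 0.13 with the replicate block. With limma-voom 29 members were higher. Under it the log2 differences of Oas2, Oas1a, Irf7, Isg15, Oas3 and Zbp1 were 0.21, 0.10, 0.25, 0.73, 0.56 and 0.87. On log2(TPM + 1) Irf7, Isg15 and Zbp1 stood at 0.13, 0.27 and 0.54, and on log2(TPM + 0.1) Oas2, Irf7, Isg15, Oas3 and Zbp1 at 0.093, 0.15, 0.57, 0.29 and 0.77. With the replicate block 29 members were higher, and Oas2, Oas1a, Irf7, Isg15, Oas3 and Zbp1 stood at 0.16, 0.10, 0.25, 0.43, 0.41 and 0.85; the block made no adjusted call. With both libraries numbered 1 left out, chosen after the data had been seen, 31 of 35 members were higher at a median of 0.66. Lgals3bp, Herc6, Oas2, Oas1a, Irf7, Isg15, Oas3 and Zbp1 then stood at 0.027, 0.067, 1.25, 0.55, 1.08, 1.45, 1.79 and 2.76.

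Over the fits without 1 library the log2 difference ran from -0.59 to 0.11 for Lgals3bp, -0.96 to 0.48 for Herc6, -1.24 to 1.53 for Oas2, -0.41 to 0.66 for Oas1a, -0.72 to 1.11 for Irf7, -1.35 to 2.13 for Isg15, -1.34 to 2.04 for Oas3, -0.88 to 2.62 for Zbp1, -0.093 to 0.32 for Adar and -0.019 to 0.43 for Trim25. The highest value of each but Trim25 came without vehicle 1. Oasl1 stayed positive, and Trim30a and Ifi27l2a negative, under every alternative in which they were tested. The cause of these shifts was not tested beyond the library left out. With 3 libraries a group and a standard error above 1 for Isg15, Oas2, Oas3 and Zbp1, a 2-fold difference in them lies within 1 standard error.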

Other observations

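A few genes of the neighbouring interferon lists are given here, chosen after their values were seen. Ido1, which degrades tryptophan and is induced by interferon gamma, was at 8.28, 0.22 and 0.51 CPM in vehicle 1, 2 and 3 and at 2.23, 1.81 and 35.9 CPM in PEEPA-P5 1, 2 and 3, so that PEEPA-P5 3 stood above vehicle 1 there. Aim2, a cytosolic DNA sensor, was at 7.82 CPM in vehicle 2, where the type I response genes were lowest, and at 0.76 to 2.35 CPM in the other 5 libraries. Slfn4, a myeloid schlafen gene, was at 8.80, 1.46 and 0.96 CPM in vehicle and 7.83, 2.74 and 7.53 CPM in PEEPA-P5, so that vehicle 1, PEEPA-P5 1 and PEEPA-P5 3 were its 3 highest libraries.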
